A study of Homo sapiens with 4 samples.

Results

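The genes that carry a cell through mitosis were examined in cells labelled NB4 after knockdown of LDB1. A list of 52 genes was chosen by function, from the spindle checkpoint to the kinetochore, the kinesins and condensin, and all 52 were found by gene symbol among the 28412 genes of the deposited table. RNA-seq was carried out on 4 libraries labelled NB4, the name of an established human line of acute promyelocytic leukemia. The sh-NC group, with 2 libraries, carried the control lentiviral vector, and its labels give the genotype as control and the source as untreated. The sh-LDB1 group, with 2 libraries, carried a vector expressing a short hairpin RNA against LDB1, the adaptor protein that binds LMO2 in a transcription complex. Per the study's methods the vector was Plko.1, and infected cells were selected with puromycin before use. Which of the study's LDB1 hairpins was sequenced and whether the replicates of a group came from separate cultures are not given in the sources used here. The p-values therefore measure the spread between these libraries, which may be technical.

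In mitosis the cyclin-dependent kinase CDK1, switched on by A and B cyclins and by CDC25 phosphatases, drives chromosome condensation and the building of the spindle. Each pair of sister chromatids is attached to spindle microtubules through its kinetochores, and the spindle checkpoint holds back the anaphase-promoting complex (APC/C) until every kinetochore is attached. The APC/C then marks securin and cyclin B for destruction, separase opens the cohesin rings, and cytokinesis divides the cell. Most of these genes are transcribed late in the cell cycle and are low in cells that do not divide, so their level in a bulk RNA sample follows both the share of dividing cells and the RNA per dividing cell. In these libraries fewer dividing cells and less RNA per cell cannot be told apart.

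The libraries were checked before the genes were compared. The FPKM (fragments per kilobase of exon, corrected for depth) had been divided by totals of 14746656 to 16182674 reads per library, and 12910 to 13443 genes per library reached 1 FPKM. LDB1 was at 135.1 and 120.1 FPKM in the control libraries, and sh-LDB1 held 10.2 and 9.47 FPKM. The line label was compared with marker genes. Of 10 promyelocytic markers 8 were analysed here, and their summed level was 11.9 to 12.9 FPKM in sh-NC, against 38.1 to 41.9 FPKM in sh-LDB1, with ELANE, neutrophil elastase, at 0 in 3 of the 4 libraries. The 12 erythroid markers summed to 3928 and 4108 FPKM in sh-NC, against 325.2 and 291.4 FPKM in sh-LDB1. The defining granule genes analysed here, ELANE, PRTN3 and AZU1, were at 0 to 5.50 FPKM in cells labelled as a promyelocytic line, while globin genes were high (HBZ at 1543 and 1600 FPKM in sh-NC). MPO and CTSG were not found by gene symbol among the 28412 genes, so their levels were not analysed here. The identity of the line was not tested. Of 5 T cell markers 4 were found, and they summed to 22.1 to 25.5 FPKM in sh-NC, against 47.8 to 50.6 FPKM in sh-LDB1. Most of that sum was CD3D, at 23.2 and 20.1 FPKM in sh-NC, against 42.2 and 45.2 FPKM in sh-LDB1. CD3E and CD3G were also higher in sh-LDB1, while CD7 was lower. The B cell markers summed to at most 2.15 FPKM in any library. The sums of the promyelocytic, erythroid and T cell markers also differed between the groups, and the part of these genes in the results below was not tested. The labels name no batch.

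Results showed that the mitotic genes were lower in the sh-LDB1 group with few exceptions. Their summed level was 1726 and 1786 FPKM in sh-NC, against 768.1 and 778.8 FPKM in sh-LDB1. That was 0.541% and 0.559% of the summed FPKM of all genes in sh-NC, against 0.269% and 0.277% in sh-LDB1. The median gene of the list stood at 26.9 and 27.6 FPKM in sh-NC, against 12.2 and 12.1 FPKM in sh-LDB1. Each gene was tested with limma on log2(FPKM + 1), with p-values adjusted over the 13300 genes that had a mean of at least 1 FPKM. Of the 52 genes, 51 passed that filter and PRC1 did not. At an adjusted p below 0.05, 49 were lower, against 37.4% of all genes tested, 1 was higher, against 29.9%, and CDC25B was not called. With a fold change below 0.5 required as well, 33 were lower, against 10.3% of all genes tested, and the 1 higher gene, UBE2C, was past 2-fold, against 9.5%. The median log2 fold change was -1.09 over the 51 genes and -0.08 over all genes tested. For the 49 lower genes no sh-LDB1 library reached the level of either sh-NC library (46.3% of all genes tested were separated in that direction), and UBE2C was separated the other way (38.3%). UBE2C passed the filter only through the sh-LDB1 libraries, so its rise is not weighed against these shares.

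The 49 lower genes kept between 21.8% (TOP2A) and 74.9% (NCAPD2) of their mean sh-NC level, and the largest adjusted p among them was 0.00357, for ECT2. The standard errors of the log2 fold changes ran from 0.0394 to 0.133. The size of the fall was less settled than its direction. For 21 genes the 95% interval lay wholly below a log2 fold change of -1, while for 12 of the 33 genes past 2-fold it reached above -1. A limma treat test of whether the change itself exceeded 2-fold called 16. Rescaling every library to the same summed FPKM moved the median of all genes up by 0.139 on the log2 scale. It left all 49 genes lower and 22 of them past 2-fold. The values rested on at least 165 reads in each library for the 50 genes other than UBE2C and PRC1, and on up to 11687 reads.

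**Figure D1:**
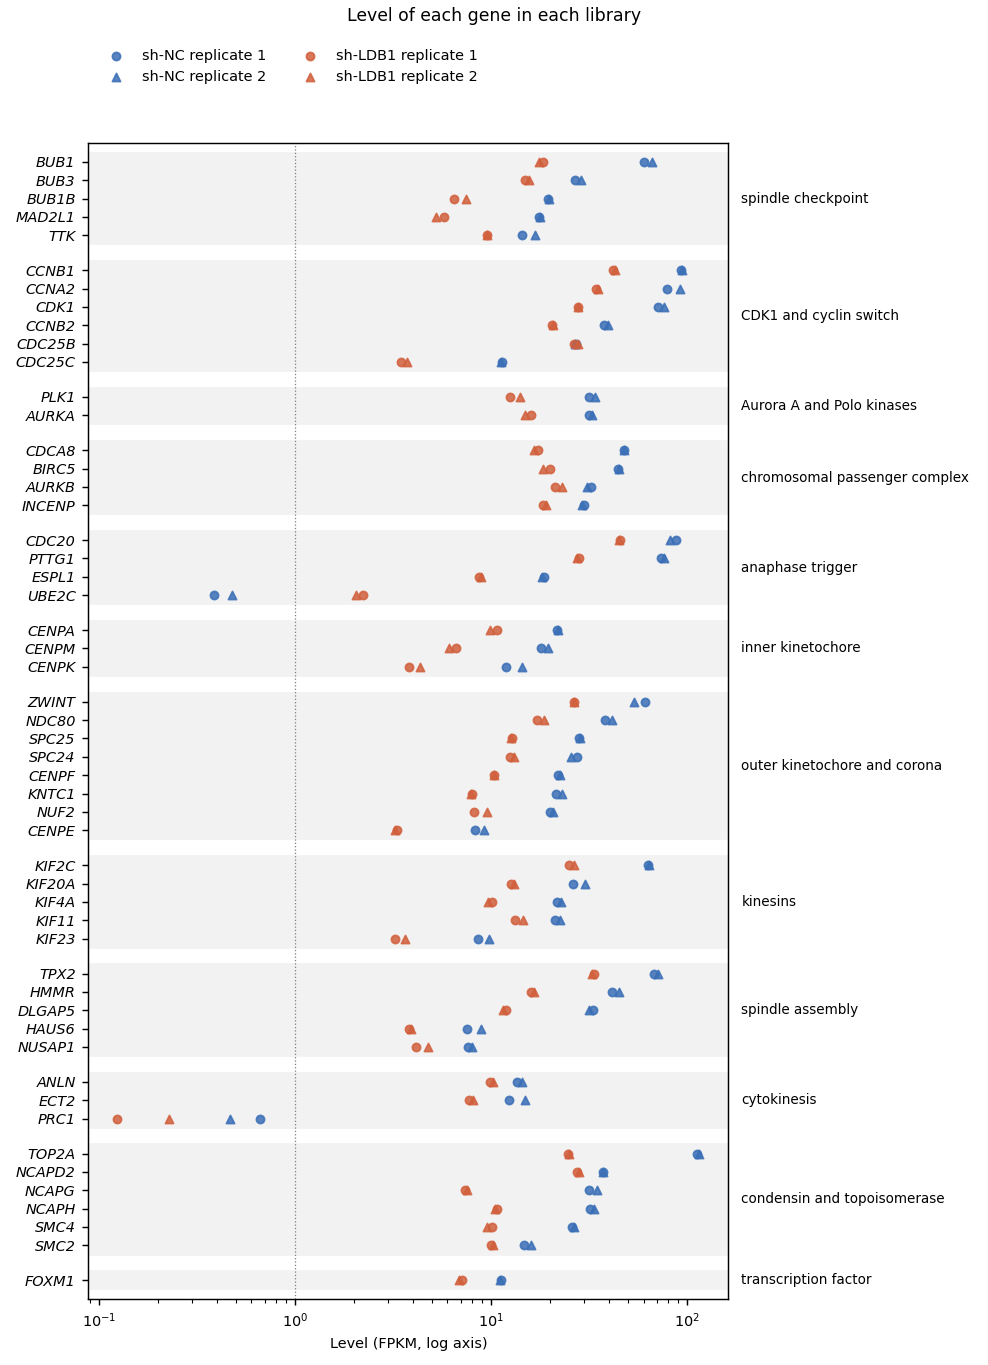
Level of the 52 genes in each library in FPKM on a log axis, grouped by role. Circles and triangles are replicates 1 and 2, blue sh-NC and orange sh-LDB1, and the dotted line marks 1 FPKM. The orange points lie left of the blue points for all genes except UBE2C, which lies right of them, and CDC25B, where the colours mix.

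Before the groups are described by role, the stretch before the start site is shown for 5 of these genes. CCNB1 (cyclin B1) and PLK1 (Polo-like kinase 1) are shown as leading mitotic regulators, and CDC25B as the tested gene called neither lower nor higher. UBE2C, which rose, and FOXM1 had no entry among the RefSeq promoters used. TOP2A and NCAPD2, the largest and the smallest of the significant falls, were added after their values were seen. The promoters of late cell cycle genes are known to hold a cell cycle homology region (CHR), bound by the MuvB complexes, and CCAAT boxes, bound by NF-Y. The sequences are the 250 bases before the RefSeq start site in GRCh38.p14, 5′ to 3′ on the strand of the gene, and the RefSeq start need not be the first base of the gene in GENCODE. Capitals mark a CHR of the letters TTTGAA, a box of the letters CCAAT and an E2F element of the letters TTCCCGC, each also as its reverse complement. The windows are chr5:69166900-69167149 (plus strand) for CCNB1, chr16:23678639-23678888 (plus) for PLK1, chr20:3786701-3786950 (plus) for CDC25B, chr17:40417897-40418146 (minus) for TOP2A and chr12:6493852-6494101 (plus) for NCAPD2.
CCNB1: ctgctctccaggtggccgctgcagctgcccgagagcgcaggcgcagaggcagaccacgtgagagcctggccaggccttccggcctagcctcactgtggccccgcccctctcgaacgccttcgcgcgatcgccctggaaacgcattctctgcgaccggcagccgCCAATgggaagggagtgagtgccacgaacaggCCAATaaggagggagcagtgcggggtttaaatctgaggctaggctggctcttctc
PLK1: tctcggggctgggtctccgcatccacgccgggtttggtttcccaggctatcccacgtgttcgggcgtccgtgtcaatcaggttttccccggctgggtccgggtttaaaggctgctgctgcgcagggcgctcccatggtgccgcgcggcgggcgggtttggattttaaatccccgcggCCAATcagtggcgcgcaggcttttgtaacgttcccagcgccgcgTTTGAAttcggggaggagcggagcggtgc
CDC25B: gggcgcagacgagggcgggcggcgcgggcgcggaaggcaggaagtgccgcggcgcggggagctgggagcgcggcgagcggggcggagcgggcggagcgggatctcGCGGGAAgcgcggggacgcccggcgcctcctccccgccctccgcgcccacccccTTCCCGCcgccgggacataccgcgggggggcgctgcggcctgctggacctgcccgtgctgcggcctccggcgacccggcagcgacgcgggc
TOP2A: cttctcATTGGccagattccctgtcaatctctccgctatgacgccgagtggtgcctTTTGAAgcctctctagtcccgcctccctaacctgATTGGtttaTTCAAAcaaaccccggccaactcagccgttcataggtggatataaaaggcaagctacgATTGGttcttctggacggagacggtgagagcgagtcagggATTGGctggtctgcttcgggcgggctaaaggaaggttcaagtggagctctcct
NCAPD2: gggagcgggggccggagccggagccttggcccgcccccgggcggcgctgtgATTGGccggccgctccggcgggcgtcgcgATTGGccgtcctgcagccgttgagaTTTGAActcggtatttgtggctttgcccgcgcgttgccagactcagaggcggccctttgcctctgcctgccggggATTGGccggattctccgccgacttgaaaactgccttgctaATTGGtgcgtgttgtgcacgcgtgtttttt

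In these letters TOP2A and NCAPD2, at opposite ends of the range of falls, both held the CHR letters (2 matches in TOP2A and 1 in NCAPD2) and 4 CCAAT boxes. CDC25B held neither element and had 2 E2F elements. CCNB1 held 2 CCAAT boxes and no CHR of these letters. Over the list, 43 of the 52 genes had an entry among the 27305 RefSeq promoters, each with 300 bases (250 before the start and 50 after). Motifs were searched on both strands. TTTGAA stood in 29 of the 43 (67.4%) and in 15.4% of all promoters. CCAAT stood in 31 of the 43 (72.1%) and in 35.7% of all promoters. A CHR or its variant TTCGAA together with CCAAT stood in 23 of the 43 (53.5%) and in 6.6% of all. Of the E2F elements, TTGGCGC stood in 4 of the 43 (9.3%) and in 3.1% of all promoters, and TTCCCGC in 5 of the 43 (11.6%) and in 6.6% of all. The reverse complement of CCAAT can overlap TTGGCGC, and TTCGAA alone stood in 2 of the 43 (4.7%) and 1.5% of all. The CHR matches had a median position 28 bases before the start site (-28), and 28 of the 37 matches lay between 100 bases before and 50 after it.

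The falls were set beside the CHR letters. The 28 tested genes with TTTGAA had a median log2 fold change of -1.09, from -2.15 to -0.41, and 18 of them were past 2-fold. The 14 tested genes with a promoter but no TTTGAA had a median of -1.23, from -1.75 to 0.01, and 10 were past 2-fold. These are descriptions with no test, a match of letters is not a bound site, and binding was not analysed here.

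The spindle checkpoint was examined among the kinases and adaptors that sense unattached kinetochores. All 5 of its genes fell, 3 of them past 2-fold, with a median log2 fold change of -1.38. Beside the counts of this and each following role, 37.4% of all genes tested were lower and 10.3% lower past 2-fold. BUB1 (ENSG00000169679; chr2:110637528-110678063, minus strand), the kinase that recruits the checkpoint proteins to kinetochores, was at 60.3 and 66.1 FPKM in sh-NC, against 18.5 and 17.6 FPKM in sh-LDB1. The control libraries were more than 3 times as high as the knockdown libraries. Its log2 fold change was -1.75 (95% interval -1.92 to -1.58, limma adjusted p = 0.000116). MAD2L1, which encodes the MAD2 protein that captures CDC20, fell by 1.52 on the log2 scale, from 17.5 and 17.7 FPKM to 5.73 and 5.25 FPKM. BUB1B, the BubR1 subunit of the mitotic checkpoint complex, fell by 1.38, from 19.6 and 19.8 FPKM to 6.51 and 7.49 FPKM. BUB3 and TTK fell less. BUB3, the partner that binds both BUB1 and BUB1B, kept 55.0% of its level, and TTK, the Mps1 kinase at the top of the checkpoint, kept 61.4% (14.3 and 16.8 FPKM against 9.60 and 9.51 FPKM).

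In the CDK1 switch, 5 of the 6 genes fell and 4 were past 2-fold. CDK1 (chr10:60778331-60794852, plus strand) was at 71.1 and 76.1 FPKM in sh-NC, against 27.9 FPKM in both sh-LDB1 libraries, a log2 fold change of -1.37 (limma adjusted p = 0.000117). CCNB1, its main mitotic cyclin, was at 93.5 and 94.5 FPKM against 41.7 and 42.8 FPKM. CCNA2, cyclin A2, was at 79.4 and 92.4 FPKM against 34.2 and 35.3 FPKM. These 3 genes were among the 5 most abundant of the list by mean FPKM in sh-LDB1. CCNB2, the other B cyclin, kept 53.4% of its level and did not pass 2-fold.

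The CDC25 phosphatases, which remove the inhibitory phosphates from CDK1, differed from each other. CDC25B (chr20:3786772-3806121, plus strand) was at 27.2 and 26.9 FPKM in sh-NC, against 26.5 and 27.8 FPKM in sh-LDB1. The sh-NC values lay between the sh-LDB1 values. Its log2 fold change was 0.01 (95% interval -0.11 to 0.13, limma adjusted p = 0.896), and with libraries rescaled to the same summed FPKM it was 0.17 (adjusted p = 0.0329). CDC25C was at 11.4 and 11.2 FPKM against 3.46 and 3.74 FPKM, a log2 fold change of -1.42 (limma adjusted p = 0.000152). In every library CDC25C was the lower of the pair, at 0.421 and 0.417 times CDC25B in sh-NC, against 0.130 and 0.135 times in sh-LDB1. CDC25A, the phosphatase that also acts at the entry to S phase and belongs to a wider list described below, was at 25.7 and 22.7 FPKM against 4.02 and 3.66 FPKM, a log2 fold change of -2.38.

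AURKA and PLK1, the kinases of centrosome maturation and mitotic entry, fell past 2-fold. PLK1 was at 31.7 and 34.1 FPKM in sh-NC, against 12.5 and 14.0 FPKM in sh-LDB1 (log2 fold change -1.25, limma adjusted p = 0.000301). AURKA was at 31.7 and 32.8 FPKM against 16.0 and 15.0 FPKM, and its interval, from -1.16 to -0.87, reached above -1. In the chromosomal passenger complex, which corrects wrong attachments, all 4 genes fell and 2 passed 2-fold. CDCA8 (borealin) kept 35.5% and BIRC5 (survivin) 42.9% of their level, while INCENP, the scaffold, kept 63.6% and AURKB, the kinase itself, 70.5%. The kinase was thus the least changed subunit of its complex. AURKB was at 32.2 and 30.7 FPKM in sh-NC, against 21.3 and 23.1 FPKM in sh-LDB1, so that its groups still did not overlap.

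Among the genes that start anaphase, 3 of 4 fell. PTTG1 (securin), the inhibitor of separase, was at 74.0 and 76.7 FPKM in sh-NC, against 28.3 and 27.3 FPKM in sh-LDB1, a log2 fold change of -1.41 (limma adjusted p = 9.77e-05). ESPL1 (separase) kept 47.8% of its FPKM, and its log2 fold change on the log2(FPKM + 1) scale was -0.99. CDC20, the APC/C activator that the checkpoint holds back, was at 87.7 and 82.3 FPKM against 45.4 and 44.7 FPKM. It was the fourth most abundant gene of the list in sh-NC and the most abundant in sh-LDB1. ESPL1 and CDC20 did not pass 2-fold on this scale.

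UBE2C (chr20:45812576-45816957, plus strand), the E2 ubiquitin-conjugating enzyme of the APC/C, was the only gene of the list that rose. It was at 0.384 and 0.475 FPKM in sh-NC, against 2.23 and 2.06 FPKM in sh-LDB1, with a log2 fold change of 1.14 (95% interval 0.78 to 1.49, limma adjusted p = 0.00195). Its levels rested on 8 and 9 reads in sh-NC, against 46 and 40 reads in sh-LDB1, far fewer than any other gene of the list except PRC1. It passed the filter on low values only through the sh-LDB1 libraries. How reads that also match its processed pseudogenes were counted is not given in the sources used here, and their part was not tested. UBE2CP2 was at 0.727 and 1.06 FPKM in sh-NC, against 0 and 0.259 FPKM in sh-LDB1, which was 6, 8, 0 and 2 reads. UBE2CP1 was at 0 to 0.223 FPKM, on 0 to 2 reads. The level of UBE2C in this table is therefore uncertain.

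At the inner kinetochore, which sits on centromeric chromatin throughout the cell cycle, all 3 genes fell past 2-fold. CENPA, the histone H3 variant that marks the centromere, was at 21.8 and 22.0 FPKM in sh-NC, against 10.7 and 9.93 FPKM in sh-LDB1. CENPK and CENPM, subunits of the constitutive centromere network, kept 31.0% and 34.0% of their levels, against 47.1% for CENPA. CENPK varied more within sh-NC (11.9 and 14.5 FPKM) than the others, and its interval was wide, from -1.77 to -1.17.

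The outer kinetochore and its corona, which bind the microtubules, fell as 8 of 8 genes, 7 of them past 2-fold, with log2 fold changes between -1.38 (KNTC1) and -0.99 (SPC24). This was the narrowest range of any role with more than 3 tested genes. The 4 subunits of the NDC80 complex, the main microtubule coupler, kept 44.8% (NDC80), 43.4% (NUF2), 48.4% (SPC24) and 45.3% (SPC25) of their levels. Ratios within a library were computed for 2 pairs of them, with no test. NDC80 stood at 1.91 and 1.99 times NUF2 in sh-NC, against 2.10 and 1.95 times in sh-LDB1, and the ratio of SPC24 to SPC25 was 0.975 and 0.902 against 0.975 and 1.03. The groups overlapped in the ratio of NDC80 to NUF2, and in the ratio of SPC24 to SPC25 the lower sh-LDB1 value was level with the higher sh-NC value. KNTC1, the Rod subunit of the complex that brings dynein to the corona, was at 21.4 and 23.1 FPKM against 7.96 and 7.94 FPKM. ZWINT, which anchors that complex, the kinetochore motor CENPE and the corona protein CENPF kept 46.2%, 37.4% and 46.4% of their levels.

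**Figure D2:**
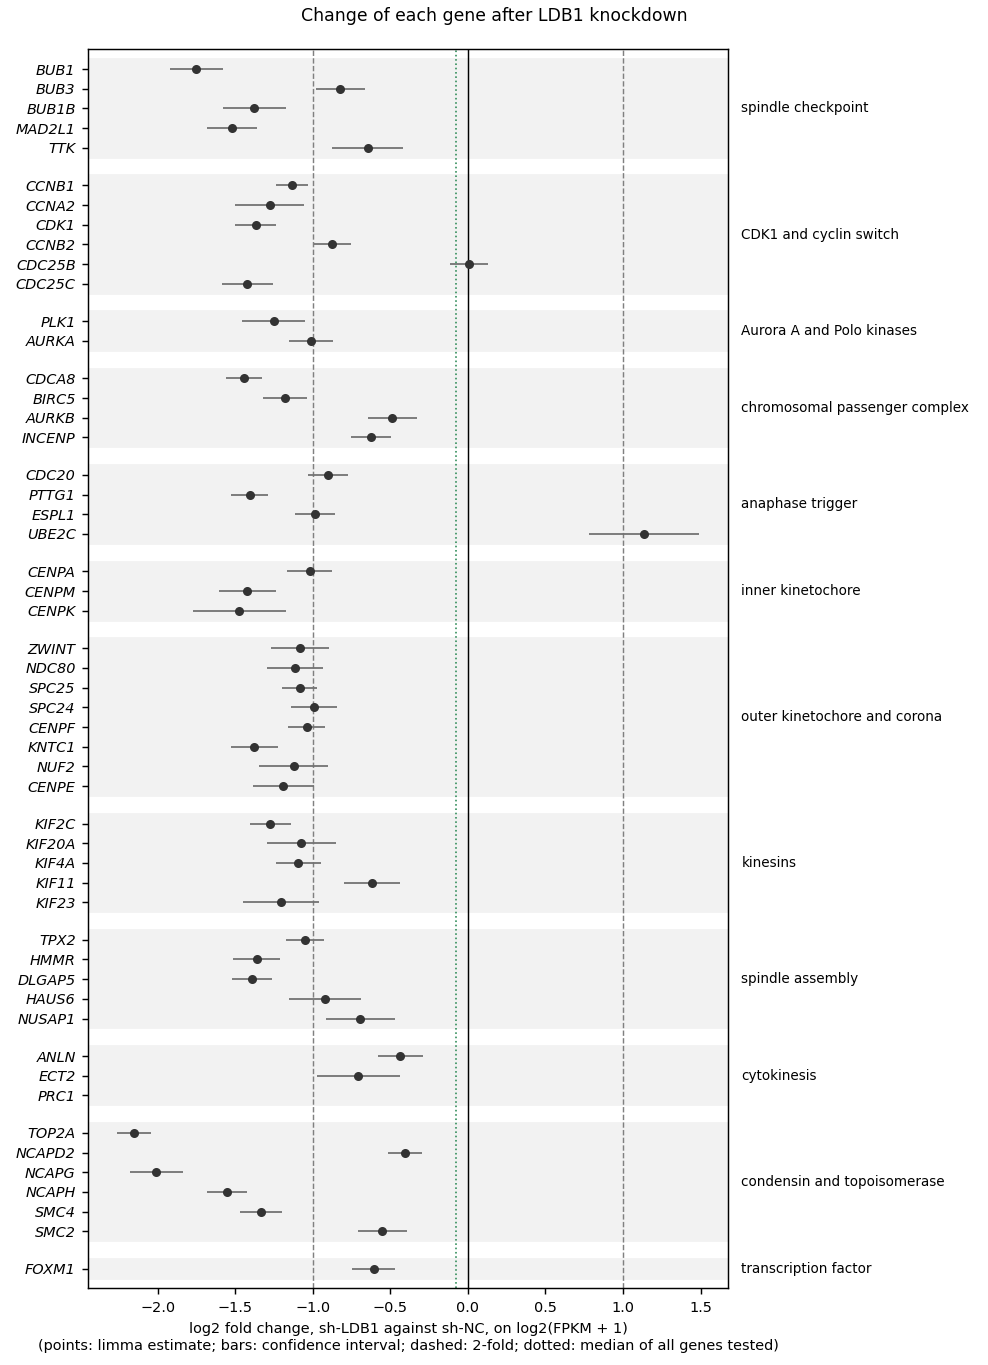
Log2 fold change of each gene in sh-LDB1 against sh-NC on the log2(FPKM + 1) scale, by role. Points are limma estimates with 95% intervals, dashed lines mark 2-fold and the dotted line marks the median of all genes tested, -0.08. PRC1 has no point because it was below the filter. The estimates for TOP2A (-2.15) and NCAPG (-2.01) lie farthest to the left, CDC25B (0.01) lies at 0 and UBE2C (1.14) lies alone to the right.

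Of the kinesin motors, 5 of 5 fell and 4 passed 2-fold. KIF2C, the depolymerase that removes wrongly attached microtubules, was at 63.3 and 64.0 FPKM in sh-NC, against 24.9 and 26.6 FPKM in sh-LDB1 (log2 fold change -1.27, limma adjusted p = 0.000123). KIF23 and KIF20A, motors of the central spindle, kept 37.2% and 45.6% of their levels, and the chromokinesin KIF4A kept 44.5%. KIF11, the motor that pushes the spindle poles apart, changed least. It was at 21.2 and 22.5 FPKM against 13.2 and 14.5 FPKM, a log2 fold change of -0.62 (95% interval -0.80 to -0.44).

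The spindle assembly factors fell as 5 of 5, with 3 past 2-fold. DLGAP5, a microtubule stabiliser near chromosomes, was at 33.1 and 31.7 FPKM against 11.9 and 11.6 FPKM, and HMMR, a spindle pole protein, was at 41.6 and 45.2 FPKM against 16.0 and 16.5 FPKM. TPX2, the activator of Aurora A on the spindle, kept 47.6% of its level. It was the seventh most abundant gene of the list in sh-NC and the fourth in sh-LDB1. HAUS6, a subunit of the augmin complex that branches microtubules, kept 47.0% of its FPKM but had a log2 fold change of -0.92 on the log2(FPKM + 1) scale. NUSAP1, which bundles spindle microtubules, kept 57.0%. Its value is uncertain, because 86.8% of its exon bases in GENCODE are shared with other genes. Most of the shared bases, 2938, belong to ENSG00000285920 on the same strand, which was not found among the 28412 genes. The length that gave whole reads for NUSAP1 was 2875 bases, against 3608 bases in GENCODE, so the authors' gene model may differ. How reads in shared exons were assigned and the use of strand are not given in the sources used here. OIP5, on the opposite strand, shares 352 bases and was itself at 17.6 and 21.6 FPKM against 6.62 and 8.45 FPKM.

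The cytokinesis genes had the smallest median change of the roles with more than 1 gene, -0.57 over the 2 tested. ANLN (anillin), the scaffold of the contractile ring, was at 13.6 and 14.3 FPKM in sh-NC, against 9.89 and 10.3 FPKM in sh-LDB1, a log2 fold change of -0.44 (limma adjusted p = 0.00233). ECT2, the exchange factor that switches on RhoA at the division plane, kept 58.2% of its level. Neither passed 2-fold, and both fell. PRC1, the bundler of the central spindle, was at 0.660 and 0.466 FPKM in sh-NC, against 0.124 and 0.227 FPKM in sh-LDB1, which was 59, 38, 11 and 19 reads. Fitted with no filter, its log2 fold change was -0.41 with a limma adjusted p of 0.0615, so that no change was called. In GENCODE, PRC1 shares 61.9% of its exon bases with other genes. The gene AC068831.7, which overlaps it on the same strand, was at 2.27 and 2.69 FPKM in sh-NC, against 0.821 and 0.564 FPKM in sh-LDB1, and how reads in the shared exons were assigned is not given in the sources used here.

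Chromosome condensation held the largest falls and the smallest significant one. TOP2A (chr17:40388525-40417896, minus strand), the topoisomerase that untangles sister chromatids, was the most abundant gene of the list in sh-NC, at 112.2 and 115.6 FPKM, and was at 24.8 and 24.9 FPKM in sh-LDB1. Its log2 fold change was -2.15 (95% interval -2.26 to -2.04, limma adjusted p = 6.77e-05), and it stood eleventh in sh-LDB1. Condensin, the ring complex that compacts chromosomes, is built from the SMC2 and SMC4 arms, which condensin I and II share, and from the condensin I subunits NCAPD2, NCAPG and NCAPH. NCAPG was at 31.5 and 34.7 FPKM against 7.36 and 7.57 FPKM, a log2 fold change of -2.01 (limma adjusted p = 9.77e-05). NCAPH was at 32.1 and 33.6 FPKM against 10.7 and 10.4 FPKM, a log2 fold change of -1.55. NCAPD2, by contrast, was at 37.3 and 37.1 FPKM against 27.4 and 28.2 FPKM, a log2 fold change of -0.41 (95% interval -0.52 to -0.29, limma adjusted p = 0.00129). The intervals of the 3 condensin I subunits did not overlap each other. LCORL overlaps NCAPG on the opposite strand over 33.7% of its exon bases, and the effect of this overlap was not tested. Other genes also share 22.0% of the exon bases of SMC4, 15.9% of those of FOXM1, 12.8% of those of PLK1 and 10.2% of those of BUB1B.

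Within each library, NCAPG stood at 0.846 and 0.935 times NCAPD2 in sh-NC, against 0.268 times in both sh-LDB1 libraries. NCAPH stood at 0.862 and 0.906 times NCAPD2, against 0.390 and 0.369 times. The 3 subunits, near equal in FPKM in sh-NC, were thus unequal in sh-LDB1. The SMC arms, which were unequal in sh-NC, became near equal, since SMC4 fell by 1.33 and SMC2 by 0.55 on the log2 scale. Their ratio was 1.77 and 1.67 in sh-NC, against 1.01 and 0.932 in sh-LDB1. Ratios within a library do not depend on how libraries were scaled. They are given with no test, and the pairs were chosen after the values of single genes had been seen.

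**Figure D3:**
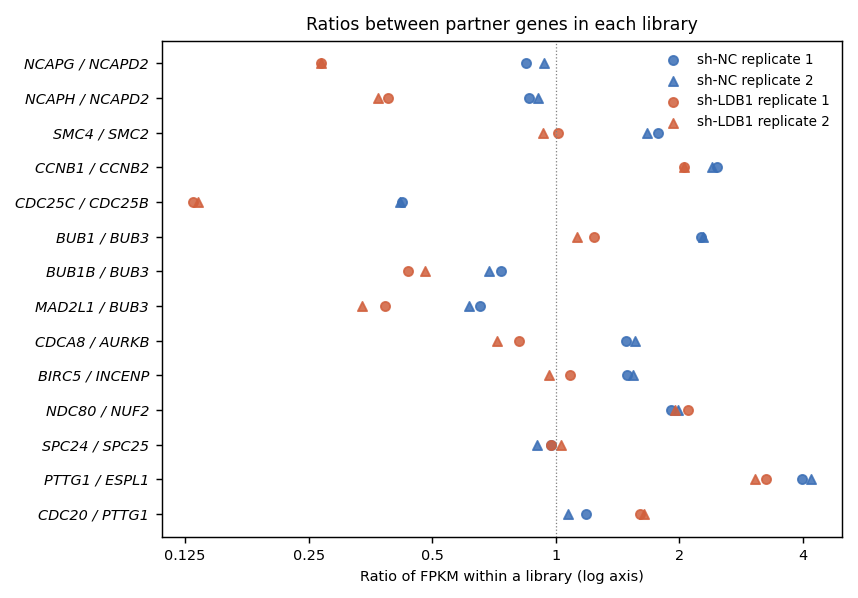
Ratio of FPKM between partner genes within each library, on a log axis. Circles and triangles are replicates 1 and 2, blue sh-NC and orange sh-LDB1, and the dotted line marks equal levels. The ratio of NCAPG to NCAPD2 lies at 0.846 and 0.935 in sh-NC, against 0.268 in sh-LDB1, while the ratio of NDC80 to NUF2 lies between 1.91 and 2.10 in all 4 libraries.

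Other partners also moved by unequal amounts. BUB1 stood at 2.25 and 2.29 times BUB3 in sh-NC, against 1.24 and 1.13 times in sh-LDB1. CDCA8 stood at 1.48 and 1.56 times AURKB, against 0.814 and 0.719 times, so that the order of the pair turned. The ratio of CDC20 to PTTG1 moved the other way, from 1.18 and 1.07 to 1.61 and 1.64. The B cyclins moved less, with CCNB1 at 2.48 and 2.40 times CCNB2 against 2.05 and 2.06 times.

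FOXM1 (chr12:2857680-2877174, minus strand), the transcription factor that drives many late cell cycle genes, was at 11.2 and 11.1 FPKM in sh-NC, against 7.08 and 6.85 FPKM in sh-LDB1. Its log2 fold change was -0.61 (95% interval -0.74 to -0.47, limma adjusted p = 0.000737), which is smaller in size than the median of the list. Of 13 tested genes for MuvB, B-Myb, NF-Y and DREAM factors, which act on the same promoters, 10 were lower, 4 of them past 2-fold, and 1 was higher. Beside them, 37.4% of all genes tested were lower, 10.3% lower past 2-fold and 29.9% higher. MYBL2 (B-Myb), which joins MuvB to activate mitotic genes, was at 98.3 and 95.0 FPKM against 36.6 and 33.5 FPKM, a log2 fold change of -1.44. TFDP1, the dimer partner of E2F factors, had a log2 fold change of -1.25. NFYC, a subunit of NF-Y, was the higher gene, at 8.16 and 8.09 FPKM against 10.4 and 11.8 FPKM.

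To place the 52 genes among the rest of the mitotic machinery, 5 further lists of 108 genes were read from the same fit. Of their 105 tested genes, 82 were lower, 32 past 2-fold, and 8 were higher, none past 2-fold, with a median log2 fold change of -0.72. Among all genes tested the shares were 37.4% lower, 10.3% lower past 2-fold and 29.9% higher. In the other kinetochore and checkpoint genes 28 of 31 were lower and 0 were higher, and 3 (PMF1, SKA2 and MAD1L1) were not called. TRIP13, the ATPase that takes apart MAD2 complexes, and CENPX, a histone-fold protein of the centromere, led the falls at -1.51 and -1.50. The other kinesin and spindle genes fell in 27 of 34, led by KIF20B (-1.42) and KIF15 (-1.25), and were called higher in 2, TUBGCP6 (0.16) and NUMA1 (0.24). Neither of the 2 higher calls remained without sh-NC replicate 2 or without either sh-LDB1 library, and 1 gene of that list was called higher without sh-NC replicate 1, without the trend or with the replicate block. The other mitotic kinases and phosphatases fell in 13 of 16. PLK4, the kinase of centriole duplication, was at 9.50 and 9.79 FPKM against 2.37 and 2.57 FPKM, and BOD1 (0.63) and PPP2R5A (0.50), both linked to the phosphatase PP2A, were higher. MKI67, which codes for the proliferation antigen Ki-67, was at 22.6 and 23.8 FPKM against 9.93 and 9.14 FPKM, a log2 fold change of -1.20 (limma adjusted p = 0.000209).

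The remaining lists covered the chromatid rings, the APC/C and cytokinesis. Of 18 other condensin, cohesin and shugoshin genes 11 were lower, 1 of them past 2-fold, and 2 were higher, with a median of -0.38. Over all genes tested, 37.4% were lower, 10.3% lower past 2-fold and 29.9% higher, so that the share of this list past 2-fold was below that of all genes. The gene past 2-fold was NCAPD3, a condensin II subunit, at 22.3 and 21.9 FPKM against 7.69 and 7.53 FPKM. SMC1A, an arm of the cohesin ring, fell by 0.95, while ESCO1 and MAU2, which acetylate and load cohesin, were higher by 0.92 and 0.48. The APC/C list had 10 of 16 lower, 6 past 2-fold, and 2 higher, with a median of -0.42. Its subunits ANAPC7 (21.8 and 23.2 FPKM against 4.75 and 4.92 FPKM) and CDC27 (22.0 and 22.5 FPKM against 5.96 and 5.82 FPKM) had log2 fold changes of -2.01 and -1.75. FZR1, the activator of the APC/C outside early mitosis, and CDC26 were higher, each by 0.52. In cytokinesis beyond the list, 3 of 6 were lower and 2 higher, beside 37.4% and 29.9% of all genes tested. CIT, citron kinase, and the mitochondrial myosin MYO19 fell by 1.16 and 0.76, while RHOA, the GTPase that drives the ring, and CHMP4B, which acts in the final cut, rose by 0.31 and 0.58.

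DNA replication genes, which act earlier in the cell cycle than mitosis, were compared as the nearest group. Of 47 tested, 45 were lower, 30 of them past 2-fold, and 0 were higher, with a median log2 fold change of -1.17 against -1.09 for the 51 mitotic genes. The shares of all genes tested were 37.4% lower, 10.3% lower past 2-fold and 29.9% higher. RFC3, a subunit of the clamp loader, was at 21.8 and 23.0 FPKM in sh-NC, against 3.67 and 3.70 FPKM in sh-LDB1. ORC5, a subunit of the origin recognition complex, was at 14.2 and 15.0 FPKM against 2.28 and 2.25 FPKM. Whether the mitotic and replication genes differ was not tested, and the counts are given as a description.

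**Figure D4:**
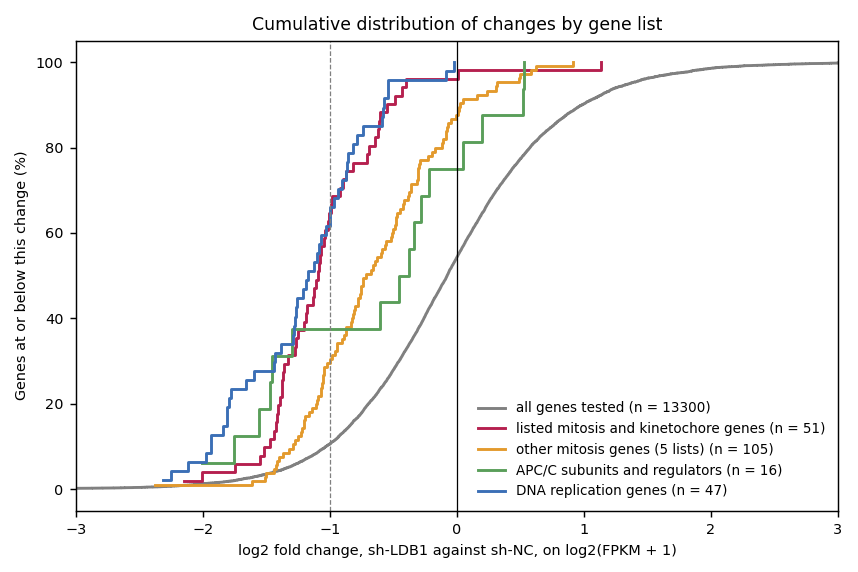
Cumulative share of genes (percent) at or below each log2 fold change on the log2(FPKM + 1) scale, for the 51 tested mitotic genes, the 105 genes of the other mitosis lists, the 16 APC/C genes, the 47 DNA replication genes and all 13300 genes tested. The dashed line marks a 2-fold fall. The curve of the mitotic genes (median -1.09) runs near that of the replication genes (median -1.17), left of the other mitosis lists (median -0.72), the APC/C genes (median -0.42) and all genes (median -0.08).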

How the data were processed

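RNA-seq was analysed in 4 libraries, 2 per group, with groups and replicate numbers taken from the sample titles. The authors filtered the reads and mapped them with HISAT (HISAT2 2.0.5 and hg38 per the submitters' processing notes), and called genes with DESeq2. The deposited table held FPKM, 1 value per gene and library, with 0 columns of per-sample values belonging to no sample. The counting tool, the annotation and the use of strand are not given in the sources used here. FPKM scaling decides the size, and near 0 the sign, of a fold change.

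Levels were compared as log2(FPKM + 1), which understates the change of low genes, for genes whose mean reached 1 FPKM, with limma 3.58.1 (eBayes with trend, R 4.3.3, two-sided) and Benjamini-Hochberg adjustment over all genes tested. The main calls were an adjusted p below 0.05, alone or with a 2-fold change. Whole reads were recovered from the FPKM steps for 28153 of 28412 genes (99.1%) within 0.0002 reads. The length of each gene was searched as a whole number around its length in GENCODE 44, in which 28193 genes were found. Because the length was left free, that share is not an independent check. The reads served for depth and for a voom alternative. Coordinates are from GENCODE 44 (GRCh38) and promoters from RefSeq (GRCh38.p14). The steps used Python 3.11.15, numpy 2.4.6 and pandas 2.3.3 and were tested on simulated data.

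The 52 genes and all lists were chosen with earlier results of these data known. Named were all 52, LDB1, MKI67 and, per list, up to 2 genes with the largest significant falls and 2 with the largest rises. Genes outside this rule that were named for an overlap, a pseudogene, a marker or a missing call were chosen after their values were seen. Alternatives varied the pseudocount, filter, scaling, model, replicate block and libraries left out.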

Additional observations from a re-analysis of the deposited data

How the results depend on the processing

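The 49 lower genes numbered 49 under each of the 13 alternative fits. With a mean of at least 5 FPKM required, UBE2C was below the filter, 50 genes were tested and 0 were higher. Of 662 pairs of gene and setting, 659 kept direction and call, and the other 3 were CDC25B, which rose under rescaling to the same summed FPKM (0.17, adjusted p = 0.0329) and was -0.0247 to 0.0395 leaving out 1 library, with -0.000177 without sh-NC replicate 2 and -0.0247 without sh-LDB1 replicate 2 below 0. The count past 2-fold, 33, was 16 under limma treat, 22 with equal summed FPKM, 25 with the median of ratios, 36 with a pseudocount of 0.1 or 0.01 or voom on recovered reads, and 32 to 33 leaving out 1 library. The median log2 fold change was -1.15 with a pseudocount of 0.1, 0.01 or voom, -0.93 with equal summed FPKM, -0.999 with the median of ratios and -1.14 to -1.08 leaving out 1 library. Over all genes, the split past 2-fold was 1371 lower and 1264 higher, 1001 and 1602 with equal summed FPKM, and 1145 and 1462 with the median of ratios. Equal summed FPKM also raised the higher genes from 2 to 4 in the condensin and cohesin list and in the APC/C list, and from 1 to 2 in the MuvB list. The 2 higher kinesin and spindle genes were 1 without the trend or without sh-NC replicate 1, and 0 without each of the other 3 libraries.

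Whether the replicate numbers pair the libraries is not given in the labels. The deviations of same-numbered libraries from their group means correlated at 0.0196 over 13300 genes, which cannot show how the libraries were prepared. With the replicate number as a block, 49 genes were lower, 33 of them past 2-fold, and the 2 higher kinesin and spindle genes were 1.

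With 2 libraries per group of unstated origin, adjusted p-values describe these libraries. UBE2C and PRC1 rest on 8 to 59 reads per library, and the level of NUSAP1 on exons that in GENCODE are shared with other genes.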
